A study of Mus musculus with 42 samples.

Results

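The cytosolic ribosomal protein genes on the array were followed through postnatal development of 2 kinds of inhibitory neuron of the mouse cerebellar cortex. Members were the probe sets whose array annotation gives a single symbol of the Rps or Rpl series, Rplp0 to Rplp2, or Rpsa. The rule selected 100 of 45101 probe sets, which represent 46 of 18194 genes: 22 of the small (40S) subunit and 24 of the large (60S) subunit. All 46 passed the filter on low values. The rule itself reads symbols only, but it was chosen with earlier results of these data known. Each gene was read from its probe set with the highest mean.

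Purkinje cells, the output neurons of the cortex, and Stellate/Basket cells, the interneurons of its molecular layer, came from the cerebellum of G42 mice, strain CB6-Tg(Gad1-EGFP)G42Zjh/J. This line carries a Gad67-GFP bac transgene, so inhibitory neurons of more than 1 type are fluorescent, and cells were picked by hand from their fluorescence and soma size. All groups carried the transgene, and no untreated or wild-type group was compared. Purkinje cells had 3 arrays for each of the first ages, which were days 3, 7 and 14 after birth (P3, P7, P14), and 4 for each of P21, P28, P35 and P56. Stellate/Basket cells were labelled as taken at P14 (4 arrays), P21 (3), P28 (4), P35 (2) and P56 (2), after averaged columns had been set aside. Polyadenylated RNA was amplified in 2 rounds and hybridised to Affymetrix MOE430.2 arrays, and values are deposited log2 expression per probe set. These are populations of cells: fewer cells of a type and less RNA per cell cannot be told apart. The labels call the replicates biological, and the p-values measure the spread between these arrays.

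Ribosomal proteins assemble with ribosomal RNA in the nucleolus into a small subunit, which decodes mRNA, and a large subunit, which joins amino acids. Their mRNAs are among the most abundant in growing cells, and many begin with a cytosine followed by an unbroken run of pyrimidines, the terminal oligopyrimidine (TOP) tract. Through this tract the mTOR pathway and the RNA-binding protein LARP1 control their translation. Growing neurons need ribosomes to build dendrites and synapses, and the Purkinje dendritic tree grows over the first postnatal weeks.

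Start sites were examined because this family is known for the TOP tract. RefSeq promoter windows of assembly GRCm38.p6 (250 bases before the start and 50 from it) were matched to 40 of the 46 genes by symbol. A cytosine at the annotated start followed by at least 4 more C or T was found in 8 of 40 members, against 3.01% of the 27025 genes in the table. The heptamer CCGGAAG, a core of ETS-type binding sites, stood on either strand of the window in 20 of 40 members, against 9.93% of all genes. TATAAA was found on either strand in 5 of 40 (12.5%), against 15.7%. These matches describe letters in a window, and an annotated start can lie some bases from the used one. Of the 8 genes with the run, 5 are shown over 20 bases on each side of the start, read 5′ to 3′ on the gene's strand, with the pyrimidine run at the start in capitals. They lie at chr17:33955646-33955685 (Rps18, minus strand), chr11:114668560-114668599 (Rpl38, plus strand), chr7:141447631-141447670 (Rplp2, plus strand), chr4:86857348-86857387 (Rps6, minus strand) and chr9:120571497-120571536 (Rpl14, plus strand).
Rps18: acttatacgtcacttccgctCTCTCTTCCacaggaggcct
Rpl38: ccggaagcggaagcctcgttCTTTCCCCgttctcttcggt
Rplp2: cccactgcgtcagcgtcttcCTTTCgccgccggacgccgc
Rps6: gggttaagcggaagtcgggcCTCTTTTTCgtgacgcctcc
Rpl14: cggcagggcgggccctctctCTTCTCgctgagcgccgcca
The runs are 9, 8, 5, 9 and 6 bases long. Across arrays, Pearson's r with the mean of the other members was 0.92 for Rps18, 0.89 for Rpl38, 0.81 for Rplp2, 0.27 for Rps6 and 0.54 for Rpl14. For the other genes with the run it was 0.91 (Rpl35), 0.89 (Rps10) and 0.73 (Rps27).

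Several groups departed from their labels in markers of other cells or of sex, and these values belong beside every result. The mean of the 10 interneuron markers measured was log2 10.35 ± 0.04 (SD, n = 3) in the Purkinje arrays of P3 and 10.29 ± 0.60 (n = 3) at P7, against 5.58 to 5.89 from P14 on. The mean of the 10 Purkinje markers measured there was 8.07 ± 1.14 at P3 and 9.80 ± 0.64 at P7, against 12.92 or more later. In replicates 1, 2 and 3 of P3 it was 9.05, 8.33 and 6.82. Stellate/Basket groups had interneuron marker means of 11.19 (P14) and 6.81 (P56), and Purkinje marker means of 8.83 (P14) and 12.19 (P56). For the 12 markers of astrocytes and Bergmann glia, the Stellate/Basket mean was 7.46 at P14 and 9.74 to 10.95 later, and the Purkinje group means were 6.62 to 7.60. Granule cell markers had Purkinje group means of 7.73 at P3, 7.78 at P7 and 5.89 to 6.24 from P14 on. Their Stellate/Basket group means were 6.93 to 7.80. Means of the oligodendrocyte, microglia and endothelial lists ran from 5.56 to 7.84 over single arrays. The labels give male animals, yet Xist, the RNA of the inactive X chromosome, was above log2 9 in 27 of 40 arrays, 13 of 25 Purkinje and 14 of 15 Stellate/Basket arrays, and at P14 the cell types did not overlap in it. The 3′ minus 5′ difference of the β-actin control probe sets, a sign of RNA integrity and amplification, had group means of 2.79 to 3.58 in Purkinje and 2.65 to 3.94 in Stellate/Basket arrays. Array medians ran from 5.91 to 6.16.

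The level of the ribosomal protein genes fell between P7 and P14 in the arrays labelled Purkinje. Averaged over the 46 genes, the log2 level was 10.72, 10.72 and 10.76 in the 3 arrays of P3, and 10.85, 10.89 and 10.76 in those of P7. At P14 it was 9.65, 9.94 and 9.69, so that each P14 array lay below each of the earlier ones. The later group means were 9.76 ± 0.22 (SD, n = 4) for P21, 9.58 ± 0.29 for P28, 9.21 ± 0.21 for P35 and 9.64 ± 0.16 for P56. The arrays of P14 to P56 thus held all the low levels, with P35 lowest. The mean of the small subunit genes went from 11.03 at P7 to 9.94 at P14, and that of the large subunit genes from 10.66 to 9.60.

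**Figure D1:**
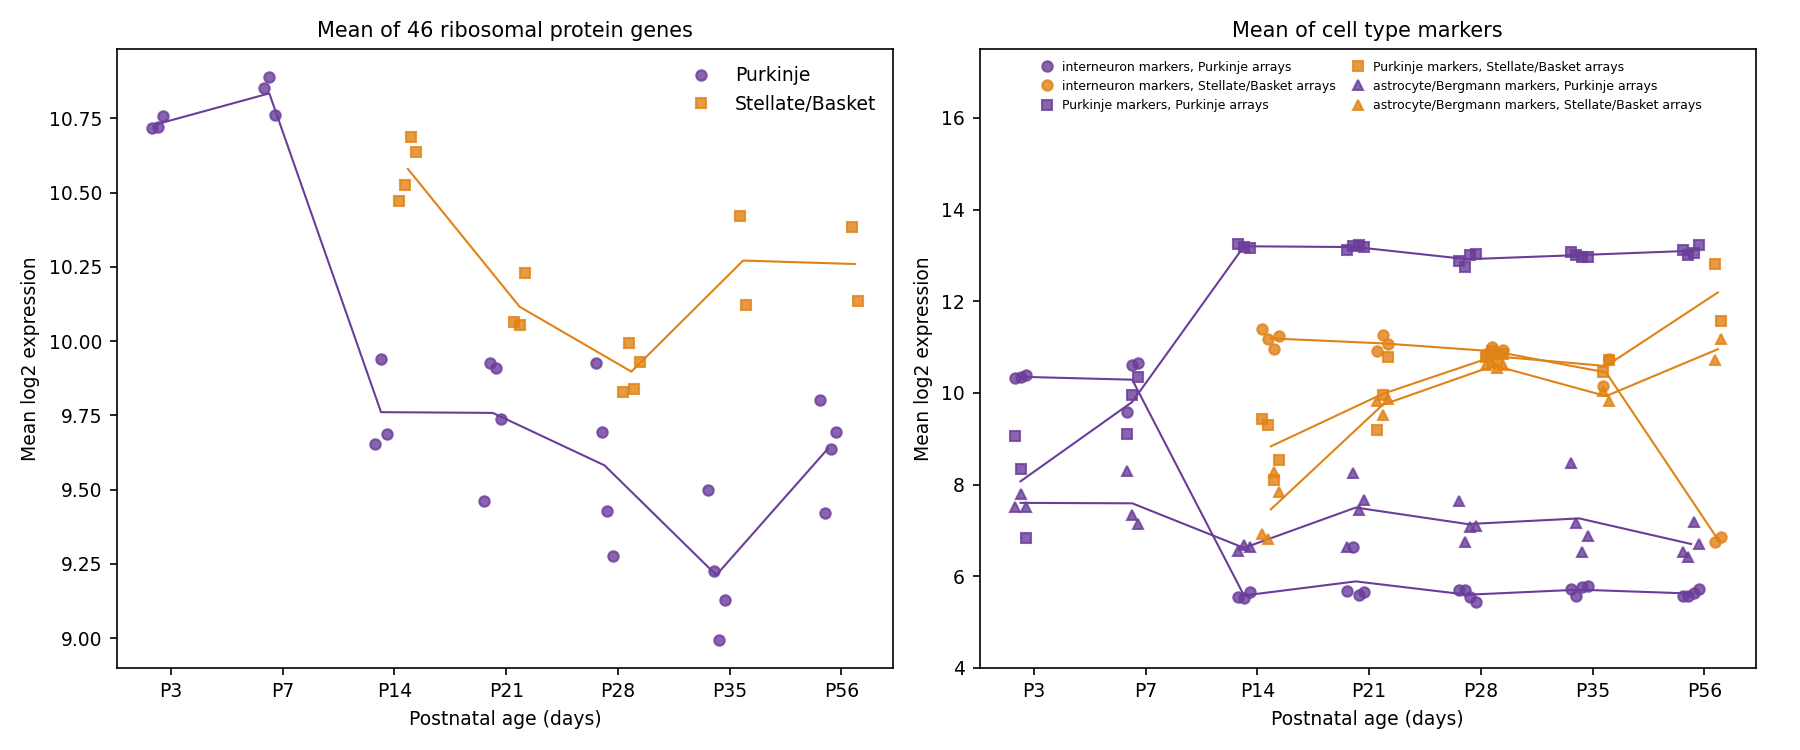
Left, the mean log2 expression of the 46 ribosomal protein genes in each array (points) by postnatal age, with lines through the group means; the Purkinje arrays of P3 and P7 lie between 10.72 and 10.89, above all later Purkinje arrays. Right, the mean of the interneuron, Purkinje and astrocyte/Bergmann marker lists in the same arrays; the interneuron markers of Purkinje arrays have group means of 10.35 and 10.29 at P3 and P7 and of 5.58 to 5.89 from P14.

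From P7 to P14, 34 of the 46 members fell (limma, adjusted p under 0.05) and 0 rose, with a median log2 difference of -1.04. Over all 17478 genes tested, 10.6% fell and 10.5% rose, with a median of 0.07. Among the 530 other genes with a mean log2 value of at least 11, the median was 0.11. A fall of at least 2-fold was found in 22 members, against 6.95% of all genes. Both subunits took part: 17 of 22 small subunit and 17 of 24 large subunit genes fell, with medians of -1.02 and -1.09. The markers of interneurons fell in the same step, 10 of 10 with a median of -4.90, and those of Purkinje cells rose, 8 of 10. The mean of the granule cell markers went from 7.78 at P7 to 5.99 at P14. The part of these markers in the fall of the ribosomal protein genes was not tested. Among the 12 Purkinje arrays with low Xist, of which P7 holds 1, the median difference was -1.12; with a single P7 array this is no replicate check of the fall.

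Rplp0, the base of the ribosomal stalk that recruits elongation factors, had the largest fall in this step. Its levels were 11.87, 11.46 and 11.67 at P7 and 8.75, 9.78 and 8.83 at P14. The groups did not overlap, and the difference was -2.54 ± 0.32 (SE), or 5.82-fold lower (adjusted p = 1.67e-07, limma). Rpl37a, a zinc-finger protein of the large subunit, was at 11.84, 12.22 and 12.25 at P7 and at 9.79, 10.12 and 9.72 at P14. This is a difference of -2.23 ± 0.38 (adjusted p = 2.74e-05). Rps19, a small subunit protein whose human counterpart is mutated in Diamond-Blackfan anaemia, was at 11.14, 10.95 and 11.13 at P7. At P14 it stood at 8.76, 9.09 and 8.91, a difference of -2.16 ± 0.27 (adjusted p = 2.36e-07). Rps4l and Rpl27a completed the 5 largest falls, at -1.85 ± 0.45 and -1.83 ± 0.39. Rpl39 and Rpl39l had the smallest differences, -0.09 ± 0.19 and 0.12 ± 0.15, and neither passed the test. Arrays did not overlap in 42 members, while 45.1% of all genes had no overlap between these groups of 3 arrays.

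Between P3 and P56, 35 members were lower at the later age and 0 were higher, with a median of -0.999 (18.8% of all genes lower, 15.8% higher, median -0.04). A fall of at least 2-fold was found in 23 members, against 7.81% of all genes. Arrays of the ages did not overlap in 39 members, against 43.2% of all genes. Rpsa, the laminin receptor homologue that is also a small subunit protein, led this comparison. It was at 12.41, 12.64 and 12.40 at P3 and at 10.18, 9.92, 9.98 and 10.02 at P56. The arrays are well apart, by -2.46 ± 0.23 (5.50-fold; adjusted p = 4.45e-10, limma). Rps19 differed by -2.23 ± 0.26, Rplp0 by -2.05 ± 0.30 and Rps18, a protein of the head of the small subunit, by -1.95 ± 0.20. Rps9 also differed by -2.18 ± 0.73 (adjusted p = 0.0191), but without P3 replicate 1 or P56 replicate 3 it was -1.93 or -1.53 and did not pass. The smallest differences were those of Rps16 (0.06 ± 0.09) and Rpl12 (-0.12 ± 0.34). Interneuron markers fell over the same span in 9 of 10 cases, by a median of -5.28, and Purkinje markers rose in 10 of 10. With P14 as the first age, whose arrays carry low interneuron markers, 4 members were lower (10.6% of all genes), with a median of -0.055. Rplp0 then stood 0.31 higher at P56.

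**Figure D2:**
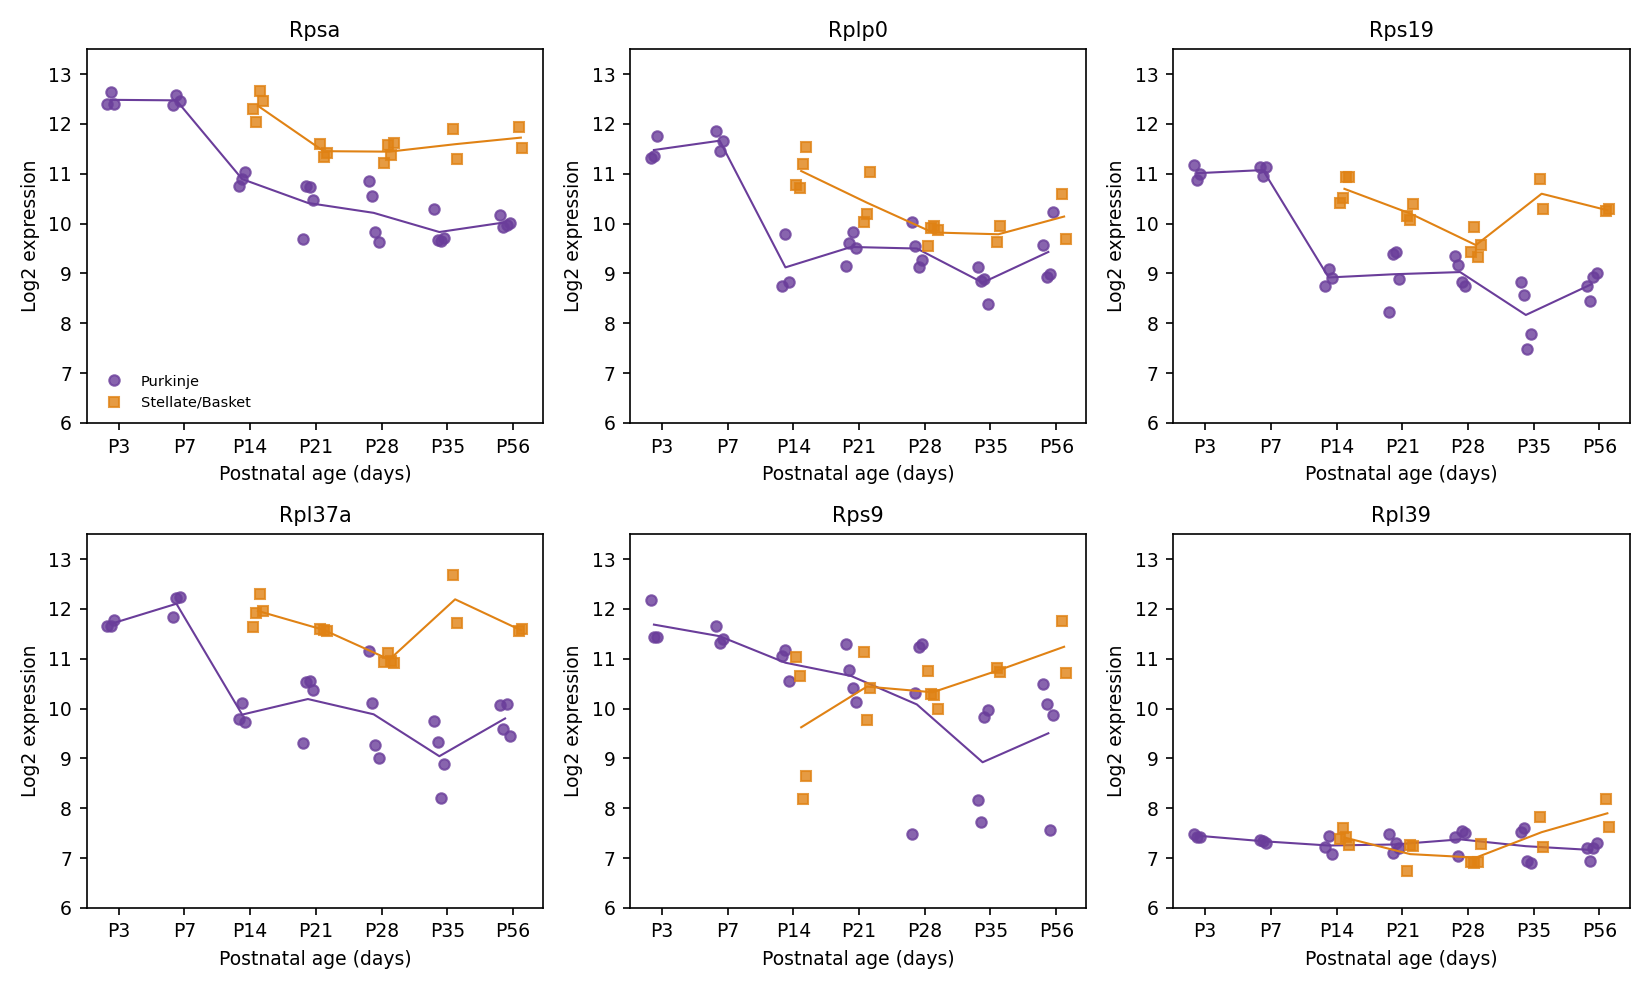
Log2 expression of 6 ribosomal protein genes in each array (points) by postnatal age, with lines through the group means. Rpsa, Rplp0, Rps19 and Rpl37a step down between P7 and P14 in Purkinje arrays; Rps9 has 6 arrays under 9 apart from the rest; Rpl39 stays between 6.73 and 8.18.

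The steps around this fall were smaller. From P3 to P7, 0 members passed in limma (0.0687% of all genes passed in either direction), 1 had an unadjusted p under 0.05, and Rps25 had the largest difference, -1.11 ± 0.43, which did not pass (adjusted p = 0.954). From P14 to P21, 0 members passed (limma; 0.0687% of all genes), with 3 at an unadjusted p under 0.05. From P21 to P28 Rpl37 and Rps27 fell, 2 of 46 (1.33% of all genes). Rpl37, a large subunit protein, was at 6.49, 7.60, 7.52 and 7.17 at P21 and at 5.85, 5.54, 6.16 and 5.87 at P28, a difference of -1.34 ± 0.26. The count was 4 without P21 replicate 1, and 1 without any 1 of P21 replicates 2, 3 and 4 and P28 replicates 2 and 4. From P28 to P35, 4 members fell (0.767% of all genes): Rplp2, Rpl22, Rps7 and Rpl13a. This count was 9 without Purkinje P35 replicate 1 and 7 without P28 replicate 4, and 2 without any 1 of P28 replicates 1 and 2 and P35 replicates 3 and 4. Leaving out either Stellate/Basket P56 array, which changes only the shared spread, gave 7.

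From P35 to P56, 12 members rose and 0 fell (7.67% of all genes rose), with a median of 0.32. Rplp2, a lateral stalk protein that partners Rplp0, showed the most. Its values were 9.91, 8.81, 8.67 and 8.92 at P35 and 10.76, 10.24, 10.56 and 10.93 at P56. The 2 ages did not overlap, and the difference was 1.55 ± 0.29 (adjusted p = 4.78e-04, limma). Rps4l rose by 1.31 ± 0.39, Rps27l by 1.27 ± 0.32, Rps24 by 1.03 ± 0.35 and Rpl19 by 0.88 ± 0.17. Without P35 replicate 1 or P56 replicate 2, 17 members rose. The mean 3′ minus 5′ difference of the β-actin control was 3.58 at P35, the highest of the Purkinje groups, and the arrays' 90th percentiles were lowest there (mean 8.99) and highest at P56 (9.33). Their part in the dip at P35 was not tested. Over all 7 ages, 41 members changed in the Purkinje arrays (F test, 56.3% of all genes). P3 or P7 held the highest of the 12 group means in 34 members, and Purkinje P35 the lowest in 30. The shares of all genes with these extremes are not given, so the counts only describe the members.

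**Figure D3:**
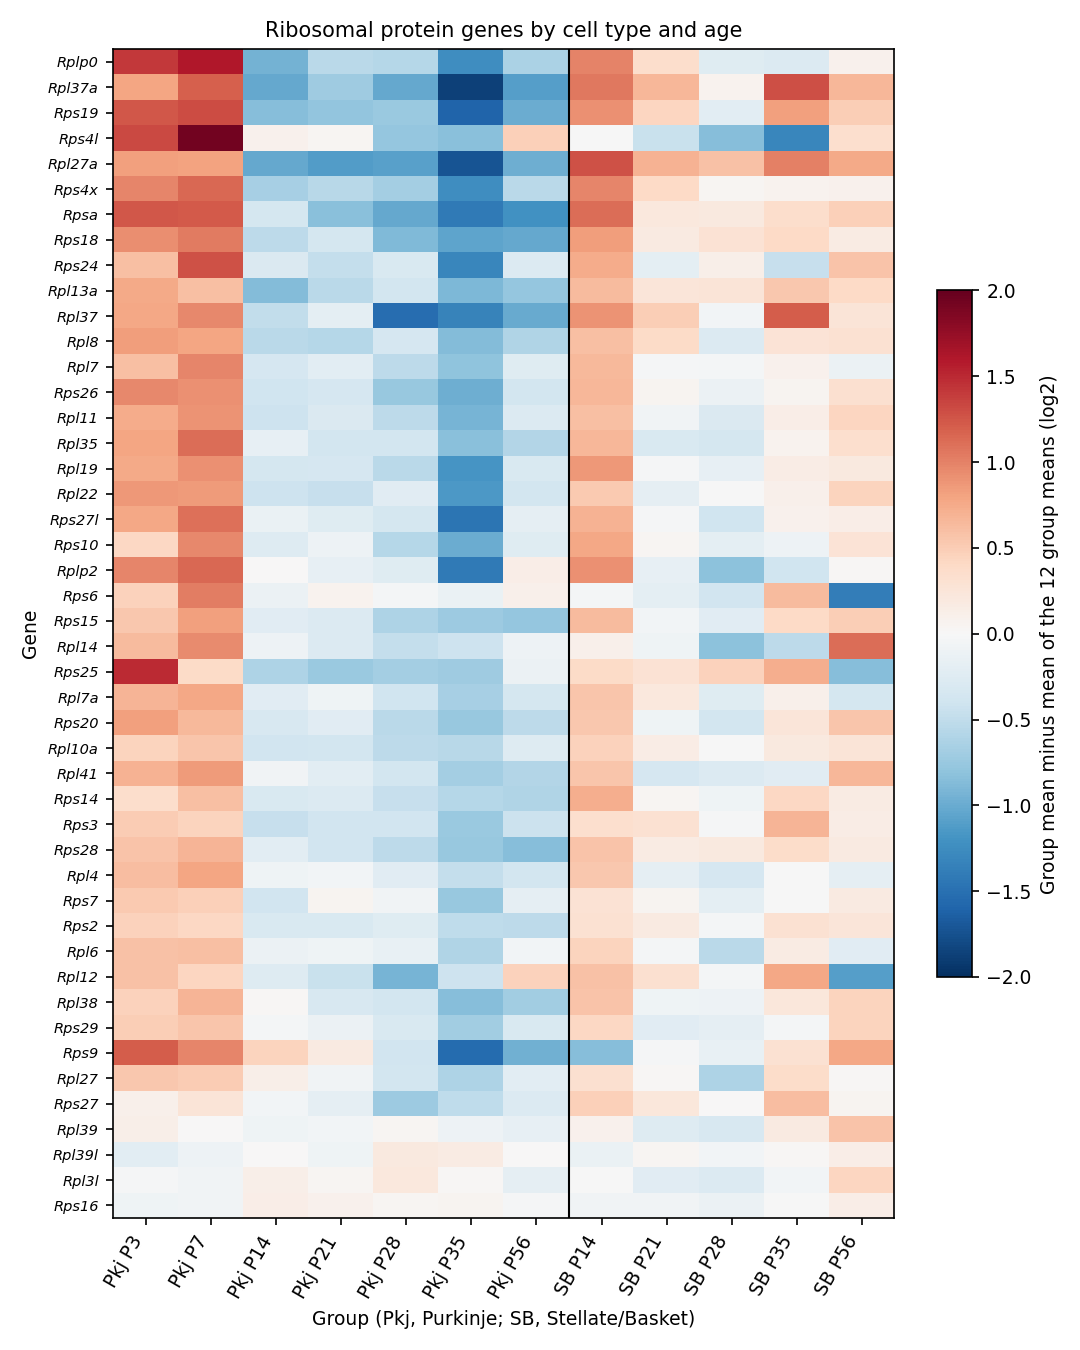
Each row is 1 ribosomal protein gene and each column 1 group of cell type and age; colour is the group mean minus the mean of the 12 group means (log2 scale), and rows are ordered by the change from P7 to P14 in Purkinje arrays. Of the 46 rows, 34 are highest in Purkinje P3 or P7 and 30 are lowest in Purkinje P35, without a share over all genes beside them. Rpl39, Rpl39l, Rpl3l and Rps16 stand at the bottom.

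Over the 5 ages that both cell types share, the ribosomal protein genes were lower in Purkinje than in Stellate/Basket arrays. With ages weighted equally, 36 of 46 members were lower and 0 higher, with a median log2 difference of -0.63. Of all genes, 24.3% were lower and 28.7% higher, with a median of 0.02, and the 530 other genes at high level had a median of 0.25. A difference of at least 2-fold was found in 8 members, against 5.13% of all genes. Of the small subunit genes, 18 of 22 were lower, and of the large subunit genes 18 of 24. Without P56, where the Stellate/Basket arrays carry few interneuron and many Purkinje markers, 35 were lower and 2 higher, with a median of -0.64. Of all genes, 22.5% were lower and 32.9% higher without P56. Interneuron markers differed by a median of -4.34 (10 of 10 lower), and astrocyte and Bergmann glia markers by -3.13 (10 of 12 lower). Granule cell marker means were 5.89 to 6.24 in the Purkinje groups from P14 on and 6.93 to 7.80 in the Stellate/Basket groups. The part of glial or granule cell RNA in the difference was not tested. Among arrays with high Xist of P21 to P56, 9 Purkinje and 10 Stellate/Basket, 32 members were lower, with a median of -0.56. In that fit, 20.8% of all genes were lower and 24.5% higher.

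Rpl27a, a large subunit protein, had the largest cell type difference. In Purkinje arrays from P14 on it lay between 6.76 and 8.51, and in Stellate/Basket arrays between 9.19 and 10.45. Every array of one cell type was below every array of the other, and the difference was -2.05 ± 0.17 (4.13-fold; adjusted p = 5.65e-12, limma). Rpl37a differed by -1.90 ± 0.16, Rps19 by -1.49 ± 0.12, Rpl37 by -1.47 ± 0.13 and Rpsa by -1.44 ± 0.11, all lower in Purkinje arrays. Arrays of the cell types did not overlap in 7 members, Rpl10a, Rpl13a, Rpl27a, Rps2, Rps28, Rps4x and Rpsa, while 2.92% of all genes had no overlap. The 10 members that did not pass include Rps6, whose phosphorylation is the usual readout of S6 kinase, at 0.26 ± 0.19, and Rplp2 at -0.25 ± 0.14.

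**Figure D4:**
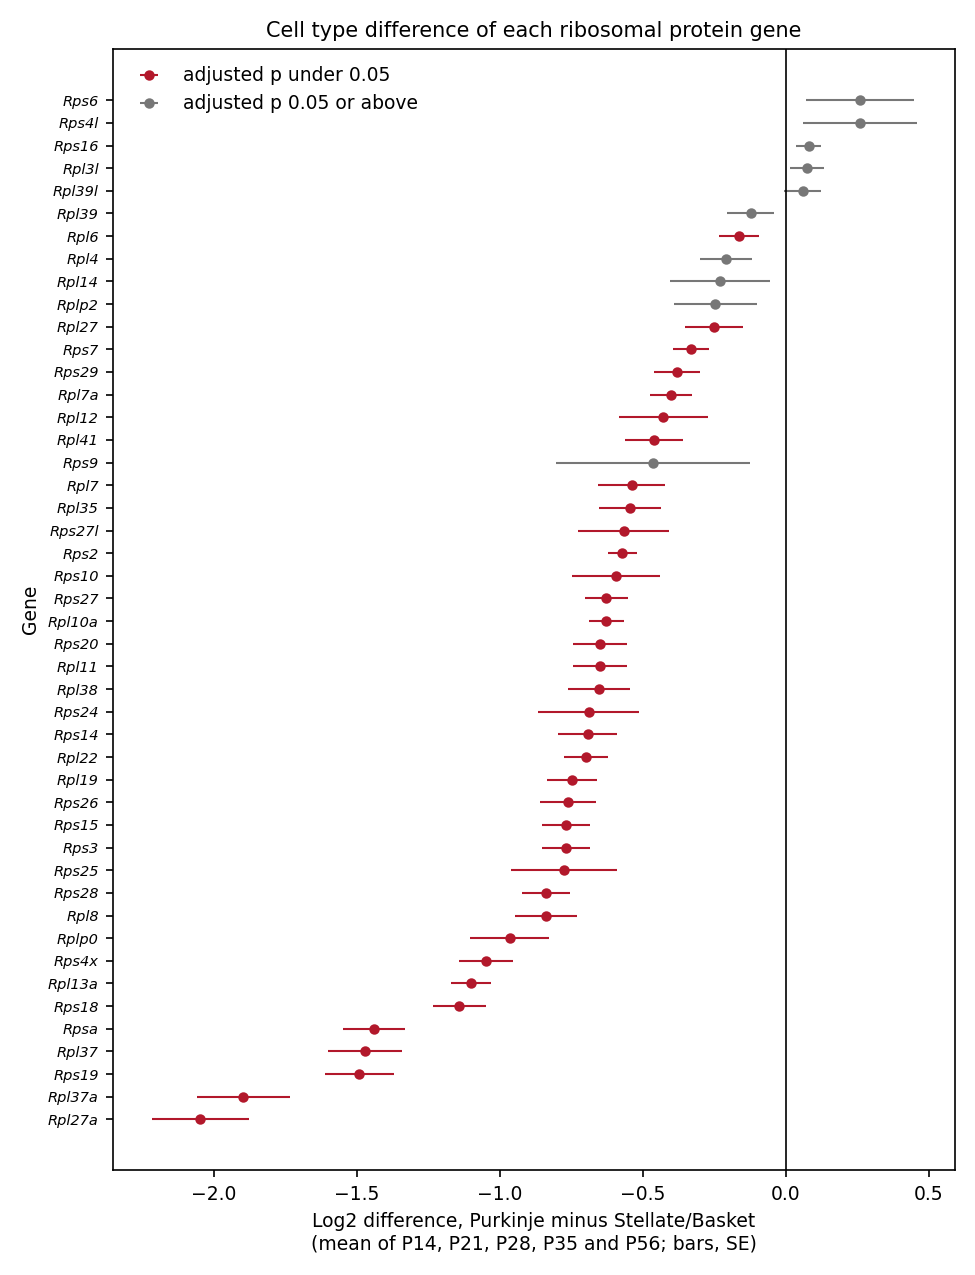
Log2 difference of each of the 46 genes, Purkinje minus Stellate/Basket, as the mean of the 5 shared ages with its SE as bars; red marks genes with adjusted p under 0.05. All 36 red points lie left of 0, from -0.16 (Rpl6) to -2.05 (Rpl27a). With each array left out in turn, 33 of the 36 kept their call throughout, and Rpl6 lost it in 25 of 40 fits.

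The counts and medians differed from age to age, while a change in the difference was tested only from P14 to P56 or to P35. At P14, 32 members were lower in Purkinje arrays and 0 higher (10.7% and 12.6% of all genes), with a median of -0.85. At P21 13 were lower and 0 higher (11.7% and 14.2%), with a median of -0.26, and at P28 13 lower and 2 higher (18.2% and 26.3%), with a median of -0.25. At P35 34 were lower and 0 higher (9.72% and 9.58%), with a median of -1.01, and at P56 26 lower and 2 higher (24.9% and 22.0%), with a median of -0.71. Without Stellate/Basket P35 replicate 1, the count at P35 was 20. By sign alone 27 members were lower at all 5 ages, and 8 passed at each: Rpl10a, Rpl13a, Rpl27a, Rpl37a, Rps18, Rps28, Rps4x and Rpsa. The shares of all genes under these rules are not given, so the counts only describe the members. Rpsa, for example, differed by -1.47 ± 0.23 (P14), -1.04 ± 0.23 (P21), -1.23 ± 0.22 (P28), -1.76 ± 0.27 (P35) and -1.70 ± 0.27 (P56), each lower in Purkinje arrays. The members higher at P28 were Rpl3l (0.49 ± 0.12) and Rpl6 (0.38 ± 0.14), and at P56 Rpl12 (1.56 ± 0.38) and Rps6 (1.49 ± 0.46).

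**Figure D5:**
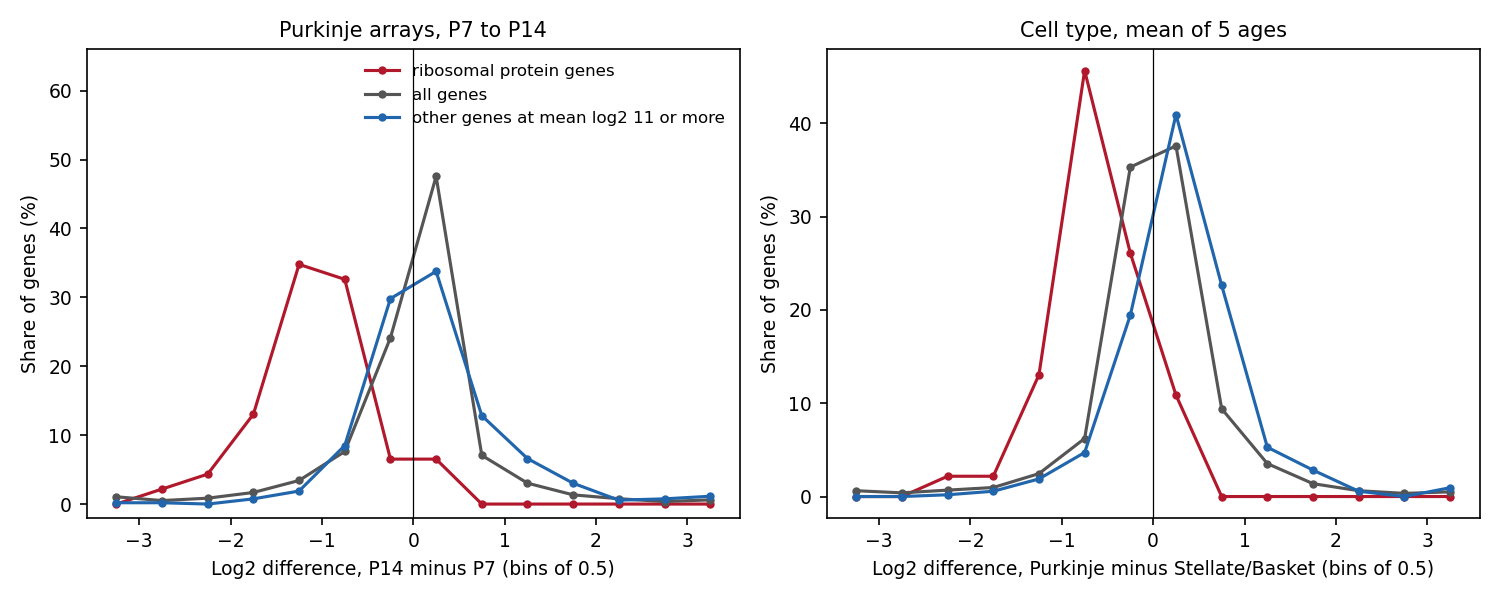
Share of genes (%) in bins of 0.5 on the log2 scale for the change from P7 to P14 in Purkinje arrays (left) and for the cell type difference (right). The ribosomal protein genes (46) centre on medians of -1.04 and -0.63, while the medians are 0.07 and 0.02 for all 17478 genes and 0.11 and 0.25 for the 530 other genes with a mean of at least log2 11.

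From P14 to P56, the span both cell types share, the count of members in Purkinje arrays was near the background. 4 were lower and 0 higher (10.6% and 3.45% of all genes), with a median of -0.055. With array weights, 10 were lower and 2 higher, against 25% and 12% of all genes. As reported, the 4 were Rpsa (-0.87 ± 0.23), Rpl38 (-0.72 ± 0.23), Rps28 (-0.64 ± 0.18) and Rps15 (-0.55 ± 0.18). Rpsa was at 10.75, 10.89 and 11.04 at P14, above all P56 arrays (9.92 to 10.18). None of these calls held in every fit with 1 array left out. Without P14 replicate 3, 0 passed, and Rpsa was at -0.79 (adjusted p = 0.0698, limma). Without P14 replicate 2 or P56 replicate 4, 1 passed, and without P14 replicate 1 or P56 replicate 2, 2 passed. Rps10 (0.00 ± 0.33) and Rpl14 (-0.01 ± 0.37) moved least.

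In Stellate/Basket arrays, 12 members were lower at P56 than at P14 and 1 was higher (18.5% and 17.7% of all genes), with a median of -0.34. With array weights, limma called 0 members, 4 had an unadjusted p under 0.05, and 5.51% of all genes were lower. With the 90th percentile as a covariate 6 were lower and 1 higher, against 15% and 15.1% of all genes. The 530 other genes at high level had a median of -0.39 in this comparison. The means of the 46 genes were 10.47, 10.52, 10.69 and 10.64 at P14 and 10.38 and 10.13 at P56, so the P56 arrays lay below those of P14. Rpl12, a protein of the stalk base, had the largest difference: 7.51, 7.14, 7.51 and 7.81 at P14 against 5.62 and 5.99 at P56 (-1.69 ± 0.38; adjusted p = 7.85e-04, limma). Rps6 was lower by -1.34 ± 0.46 and Rps25, which takes part in initiation at internal ribosome entry sites, by -1.24 ± 0.45. Rpl7a, with -0.92 ± 0.18, and Rplp0, with -0.91 ± 0.34, followed. Rpl3l, the muscle-type paralogue of Rpl3, was higher by 0.43 ± 0.14, at values near the low end of the scale. Without P56 replicate 3, 4 members passed, and Rps6, Rps25, Rplp0 and Rpl3l were not among them (-1.08, -1.57, -0.47 and 0.07). Rps25 and Rps6 also missed the threshold without P14 replicate 3, and further single arrays had this effect for Rps6 (P14 replicate 2), Rps25 (P56 replicate 1) and Rplp0 (P14 replicates 3 and 4). Over this span 9 of 10 interneuron markers fell and 11 of 12 astrocyte and Bergmann glia markers rose, and their part was not tested. With P35 as the last age, 5 members were lower (5.88% of all genes), with a median of -0.30. In that fit Rpl12 (0.19), Rps6 (0.67) and Rps25 (0.34) stood on the other side of 0.

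The 5 ages of Stellate/Basket arrays differed in 32 members (F test, 40.5% of all genes). The first step, from P14 to P21, held 9 that fell and 0 that rose (1.78% of all genes fell), led by Rplp2 (-1.09 ± 0.31), Rpl35 (-0.97 ± 0.23) and Rpsa (-0.91 ± 0.23). Rpsa was at 12.30, 12.04, 12.65 and 12.47 at P14 and at 11.61, 11.33 and 11.43 at P21. Gja1, an astrocyte gap junction gene, had a mean of 6.68 at P14 and 11.65 at P21, and its part was not tested. The count was 2 without P21 replicate 3, 3 without P21 replicate 1 or 2, and 4 without P14 replicate 3 or 4. From P21 to P28, 0 passed in limma (2.08% of all genes), with 6 at an unadjusted p under 0.05. From P28 to P35 Rpl27, Rpl37 and Rpl6 rose, 3 of 46 (0.984%), and 0 passed without P35 replicate 1. Without either P28 replicate 1 or 3, 1 passed. Leaving out P35 replicate 2, either P56 array, or any 1 of Purkinje P21 replicate 1, P28 replicate 1 and P35 replicates 1 and 3 gave 5. From P35 to P56, 4 rose and 3 fell (8.61% and 10.8%), and without P35 replicate 1 or 2 or P56 replicate 3 the total of 7 became 4, 2 or 4.

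The test of the difference between the cell types in their change from P14 to P56 passed in 11 members, with 8 positive and 3 negative (15.4% and 21.0% of all genes). The split depended on scaling. After quantile normalization 2 were positive and 4 negative (12.5% and 19.2% of all genes). The median was then -0.029, against 0.24 as reported. With the arrays' 90th percentile as a covariate 1 was positive and 0 negative (7.55% and 11.3% of all genes). A positive value means that the change was higher in Purkinje arrays. Rpl12 had the largest positive value, 2.40 ± 0.51 (adjusted p = 5.93e-04, limma), followed by Rps25 (1.74 ± 0.60), Rps6 (1.56 ± 0.61), Rplp0 (1.22 ± 0.45) and Rps4x (1.01 ± 0.30). The leading Rps9 probe set gave -3.03 ± 1.10 (adjusted p = 0.0314) and its further ones 0.62 and 0.41, so no direction is given for Rps9. Rpl12 and Rps4x alone passed in each fit with 1 array left out, though a further Rps4x probe set passed with the opposite sign, and the count ranged from 5 (without Stellate/Basket P56 replicate 3) to 13. It was 6 or 7 without any 1 of Purkinje P14 replicates 1 and 3, Purkinje P56 replicates 1, 3 and 4 and Stellate/Basket P14 replicates 3 and 4. Without Stellate/Basket P56 replicate 3, the values of Rplp0 and Rpl3l were 0.78 and -0.36. With P35 as the last age, 0 members passed (1.53% of all genes positive, 1.83% negative).

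Most members moved together. Over the 40 arrays, Pearson's r between a member and the mean of the other 45 was above 0.8 in 34 genes, as a description of arrays that share depth, cell type and age. It was highest for Rpl19 (0.97), Rps19 (0.96) and Rpl11 (0.96). It was below 0.5 in 7, lowest for Rpl39l (-0.52), Rps16 (-0.40), Rpl3l (-0.02), Rps6 (0.27) and Rps9 (0.29), while Rpl14 stood at 0.54. A probe set's level cannot be set against another's, but 5 members (Rps16, Rpl3l, Rpl39l, Rpl14 and Rpl12) had means under 7 on a scale whose array medians lie near 6. Rps16 lay between 4.60 and 5.19 in all 40 arrays. Rps9, a small subunit protein that helps maintain decoding fidelity, split in another way. Its probe set was at 7.48, 8.16, 7.73, 7.56, 8.17 and 8.64 in 6 arrays (Purkinje P28 replicate 1, P35 replicates 1 and 2 and P56 replicate 3, and Stellate/Basket P14 replicates 3 and 4) and at 9.77 or more in the other 34. A further Rps9 probe set without such a gap gave a difference in change of 0.62 where the first gave -3.03, so no direction is given for this gene in that comparison.

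Values of paralogues are given beside those of the genes they copy. Rps27l, a p53-responsive copy of Rps27, fell from P7 to P14 by -1.23 ± 0.37 (adjusted p = 0.0134, limma), while Rps27 stood at -0.32 ± 0.17 (adjusted p = 0.221). Rps27l did not pass without P7 replicate 2 or P14 replicate 3 (-1.14 and -1.15). In the cell type comparison both were lower in Purkinje arrays, Rps27l by -0.57 ± 0.16 and Rps27 by -0.63 ± 0.08. Rpl39l, known from testis, did not pass in either comparison, nor did its parent Rpl39 (-0.12 ± 0.08 between cell types), which ranged over 1.45 on the log2 scale. Rps4l, a copy of the X-linked Rps4x, fell with it from P7 to P14 (-1.85 and -1.81), but it did not differ between cell types (0.26 ± 0.20) where Rps4x was lower by -1.05 ± 0.09. Differences between copies were not tested. Rplp1, Rps27a and Rpl10l were not among the members.

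Each probe set was also fitted on its own. Of the 100 member probe sets, 75 were lower and 4 higher between cell types (23.9% of all probe sets with 1 symbol were lower), 74 lower and 1 higher from P3 to P56 (16.3%), and 66 lower and 0 higher from P7 to P14 (8.72%). Probe sets of 1 gene passed in opposite directions for Rps18, Rps20 and Rps4x between cell types, for Rps20 from P3 to P56, and for Rps3 and Rps4x from P14 to P56 in Stellate/Basket arrays and in the difference in change. In the latter the leading Rps4x probe set gave 1.01 and a further one -1.29. The probe sets higher between cell types had means of 4.79 (Rps18), 5.45 and 4.93 (Rps20) and 6.41 (Rps4x). Array medians ran from 5.91 to 6.16. The leading probe sets of these genes gave -1.14, -0.65 and -1.05 between cell types. Ribosomal protein genes have many processed pseudogenes, and 14 of the 46 leading probe sets are of the _x_at kind, which can bind several transcripts. With _x_at and _s_at probe sets left out, 41 members remained. Between cell types 29 of them were lower and 1 higher (24% and 28.7% of all genes). From P7 to P14, 27 were lower (10.3% of all genes).

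Other genes of the translation pathway, taken from lists chosen with earlier results of these data known, were read beside the members. Over all genes, 10.6% fell and 10.5% rose from P7 to P14. Of 12 elongation and termination factors measured, 5 fell and 1 rose from P7 to P14: Eef2, the translocase (-1.46 ± 0.25), Eef1a1, which delivers aminoacyl-tRNA (-1.07 ± 0.17), and Eef1b2 (-1.02 ± 0.16) fell, and Eif5a2 rose by 1.51. Of 32 initiation factors, 4 fell and 1 rose, counts near or under those shares, with Pabpc1, the poly(A)-binding protein, at -1.31 ± 0.26. Eef2, Eef1a1 and Pabpc1 are, like the ribosomal proteins, classical TOP mRNAs. Of 68 ribosome biogenesis genes, 5 fell and 2 rose, below those shares, with a median of -0.19. Those with the largest falls were Polr1e, an RNA polymerase I subunit (-1.46), Wdr43 (-1.24) and Npm1, a nucleolar chaperone (-1.03 ± 0.23). Of 76 mitochondrial ribosomal proteins, which build the separate ribosome of mitochondria, 0 fell and 11 rose, with a median of 0.18.

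Between cell types, 28.7% of all genes were higher in Purkinje arrays and 24.3% lower. Of the 76 mitochondrial ribosomal protein genes, 64 were higher in Purkinje arrays and Mrpl52 alone lower, with a median of 0.56, and of the 68 biogenesis genes 32 were higher and 5 lower (median 0.22). Of the initiation factors, 17 were higher and 4 lower. Pabpc1 was among the lower (-0.79 ± 0.11). Of the 12 elongation and termination factors, 4 were higher, with Eif5a2 at 0.86, and 3 lower, Eef2 (-1.12 ± 0.11), Eef1a1 (-0.82 ± 0.08) and Eef1b2 (-0.36 ± 0.07). Of 20 genes of the mTOR axis and its regulators, 5 were higher, among them Rictor (1.39), Larp1 (1.14) and Mtor (0.72), and 6 lower, among them the translation inhibitor Pdcd4 (-1.65 ± 0.15). Both counts are near the shares of all genes. Of 5 further ribosomal proteins outside the naming rule, Rps3a1 (-0.57 ± 0.10) and Fau (-0.51 ± 0.13) were lower and 0 were higher.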

How the data were processed

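The authors deposited log2 expression, 1 value for each probe set of an array. GCRMA and R 2.9.1 are listed in the submitters' processing notes, which state neither role nor order. Of 42 deposited columns, 2 equal the mean of others of their group (tolerance 1e-08) and were left out. A gene was its single-symbol probe set with the highest mean, kept where log2 exceeded 5 in at least 3 arrays (17478 genes). Values were not rescaled. limma 3.58.1 in R 4.3.3 fitted 1 mean for each of the 12 groups of 40 arrays, with Benjamini-Hochberg adjustment over all genes; a gene passed at adjusted p under 0.05. The procedure was tested on simulated data. Figures used Python 3.11.15 and matplotlib 3.10.9.

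Named were up to 5 passing members with the largest differences in each direction (the 3 largest where fewer than 3 passed), the 2 smallest, stalk proteins and paralogues, the lowest by level, extremes of likeness, disagreeing probe sets, and up to 3 leading genes of other lists. Members and lists were chosen with earlier results of these data known. Alternatives covered normalization, probe sets, filters, variance model, replicate block, ages and single arrays; Xist, β-actin and probe sets with several symbols were added after seeing the data.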

Additional observations from a re-analysis of the deposited data

Results flagged for a closer look

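In 48 tests of groups of 4 arrays for a single distant array, 4 found one; chance gives about 1 in 20. Rpl37a was lowest in 1 Purkinje array of P21, at 9.32, with the other 3 between 10.37 and 10.54. Rpsa was highest in 1 Purkinje array of P35, at 10.28, against 9.65 to 9.72. Rplp0 was lowest in 1 Stellate/Basket array of P28, at 9.56, and Rpl39 was highest in another of that age, at 7.29.

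The change from P14 to P56 differed between the cell types in 11 genes by the limma interaction test. Over all genes, 15.4% passed as higher in Purkinje arrays and 21% as lower, so the count does not single out the members. Of the 11 calls, 2 held in each fit with 1 array left out, those of Rpl12 and Rps4x. It was higher in Purkinje arrays for Rpl12 (2.40), Rps25 (1.74), Rps6 (1.56), Rplp0 (1.22), Rps4x (1.01), Rpl7a (0.78), Rpl6 (0.74) and Rpl19 (0.73). It was lower for Rpl3l (-0.72) and Rps16 (-0.35), which lie near the low end of the scale. For Rps9 the leading probe set, with 6 arrays under log2 9, gave -3.03 and its further ones 0.62 and 0.41, so no direction is given. For Rps4x a further probe set passed in the opposite direction (-1.29).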

How the results depend on the processing

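The counts of members between cell types, from P3 to P56 and from P7 to P14 kept their direction and stayed within 1.5 times under each normalization, probe set and spread model tried. The results from P14 to P56 and single steps did not; the cause was not tested. Under quantile normalization the Stellate/Basket median from P14 to P56 was -0.16, the difference in change passed in 6 members (2 positive, 4 negative) with a median of -0.029, the Purkinje steps P21 to P28 and P35 to P56 held 1 and 7, and the Stellate/Basket steps P21 to P28 and P28 to P35 held 1 and 6. With arrays centred on their medians, 1 Purkinje member passed from P14 to P56 (5.28% of all genes higher, 5.19% lower). The median of all genes then moved from -0.07 to 0.04. With the 90th percentile as covariate, Stellate/Basket P14 to P56 held 7 and the difference in change 1 (median 0.058). Array weights gave 12 for Purkinje P14 to P56, 0 for Stellate/Basket (13 in the main fit) and 2 for the difference in change. For that difference, 6.84% of all genes were positive and 7.47% negative with array weights. Fits to only the groups compared gave 2 and 8 for Purkinje and Stellate/Basket P14 to P56. Of all genes, 5.82% were higher and 8.91% lower in that Purkinje fit, and 7.16% and 11.3% in the Stellate/Basket fit. Counts in this section without a share of all genes beside them only describe the members.

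With P35 as the last age, the medians were -1.40 from P3 and -0.51 from P14 in Purkinje arrays, Stellate/Basket held 5, and the difference in change held 0 with a median of -0.12. Single genes that changed sign there were Rpl12 (0.19), Rps6 (0.67), Rps25 (0.34) and Rpl3l (-0.052) in Stellate/Basket arrays, and Rpl12 (-0.34), Rps25 (-0.43) and Rps6 (-0.69) in the difference. With P14 as the first age the count was 4, the median -0.055 and Rplp0 at 0.31. The mean of probe sets turned Rps4x in the difference to -0.14, and without _x_at and _s_at probe sets Rps9 was at 0.41. Requiring a log2 difference of 1 left 8, 23, 22, 0, 3 and 6 members in the order cell type, P3 to P56, P7 to P14, Purkinje and Stellate/Basket P14 to P56 and difference in change. Added after seeing the data, Purkinje arrays with low Xist gave 1 from P14 to P56 (2.7% of all genes higher, 3.74% lower). Also added then, 110 probe sets with several symbols gave 17 for the difference in change (11.1% of all probe sets positive, 16.7% negative).

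Replicate numbers did not pair the arrays, as correlations of same-numbered deviations ran from -0.181 to 0.225. A replicate block moved Purkinje P14 to P56 to 2 and the difference in change to 7. Of all genes, 2.8% were then higher and 9.33% lower in the first, and 14.1% and 19.1% in the second.

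With each array left out in turn, the counts were 34 to 39 for cell type, 33 to 37 for Purkinje P3 to P56, 32 to 36 for Purkinje P7 to P14, 0 to 4 for Purkinje P14 to P56, 4 to 16 for Stellate/Basket P14 to P56, 5 to 13 for difference in change, 26 to 34 for cell type at P14, 9 to 15 for cell type at P21, 14 to 22 for cell type at P28, 20 to 35 for cell type at P35, 21 to 31 for cell type at P56, 40 to 42 for change over ages, Purkinje and 26 to 38 for change over ages, Stellate/Basket. The counts of the steps were 1 to 4 for Purkinje step P21 to P28, 2 to 9 for Purkinje step P28 to P35, 9 to 17 for Purkinje step P35 to P56, 2 to 12 for Stellate/Basket step P14 to P21, 0 to 5 for Stellate/Basket step P28 to P35 and 2 to 9 for Stellate/Basket step P35 to P56. The steps Purkinje P3 to P7 and P14 to P21 and Stellate/Basket P21 to P28 held 0 each time. The medians ran -0.67 to -0.59 for cell type, -1.08 to -0.94 for Purkinje P3 to P56, -1.15 to -0.99 for Purkinje P7 to P14, -0.13 to 0.03 for Purkinje P14 to P56, -0.39 to -0.24 for Stellate/Basket P14 to P56 and 0.13 to 0.35 for difference in change.

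The number of arrays, 2 in the Stellate/Basket groups of P35 and P56, limits the precision, and no detection calls come with the values.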
